A study of Mus musculus with 6 samples.

Results

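The genes described here are 9 transcripts of the interferon response and of MHC class I antigen presentation in mouse skeletal muscle. They are the class I heavy chain genes H2-K1 and H2-D1, the light chain gene B2m, the peptide transporter gene Tap1, the interferon regulatory factor genes Irf1 and Irf7, and the interferon-stimulated genes Ifit1, Ifit3 and Isg15. They were taken by gene symbol, and all 9 were found among the 19458 genes of each of the 6 tables and passed the filter on low counts. RNA-seq libraries from the gastrocnemius, the large calf muscle, of C57BL/6 mice aged 9 weeks were compared: 3 libraries with the genotype tmem182-/- and 3 wild-type libraries. Tmem182 encodes a membrane protein of striated muscle, and the question put to these libraries is what its loss does to transcripts of muscle. All 3 knockout libraries carry Tmem182 in the genotype field, although knockout libraries 2 and 3 have source labels with other Tmem numbers. The labelled protocol speaks of cultured muscle cells while tissue and source labels give muscle, and the labels do not tie each library to its own mouse. P-values therefore reflect the spread among these 6 samples, part of which may be technical.

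Interferons bind receptors that activate JAK kinases and STAT transcription factors, and these, with the interferon regulatory factors, switch on a set of antiviral genes. MHC class I molecules show peptides from inside the cell to cytotoxic T cells; each consists of a heavy chain, beta 2-microglobulin and a peptide that the TAP transporter carries into the endoplasmic reticulum. Healthy muscle fibres carry little class I on their surface, and its appearance on fibres is a known feature of inflammatory muscle disease.

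Total expected counts ranged from 16212341 to 18672630 per library. Knockout library 1 stood apart: its 10 most abundant genes held 22.01% of counts, against 28.2% to 31.9% in the other 5, and its TMM scaling factor was 1.19, against 0.933 to 1.04. Tmem182 was at 2.17 to 6.23 FPKM (fragments scaled to transcript length and library size) in the knockout libraries and 120.97 to 147.48 FPKM in the wild-type libraries. Of 12774 genes tested it alone had an adjusted p below 0.05 by edgeR, which is 0.00783% of them. Markers of muscle fibres were as the tissue label says, with Acta1 at 27925.92 FPKM or more in every library.

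The promoters of 5 members hold a known interferon motif, and these stretches are shown because they tell the members apart by a feature that expression did not choose. In RefSeq windows on GRCm38.p6 that run from 250 bases before to 50 bases after each annotated start, the interferon-stimulated response element, searched on both strands as GAAA, any 2 bases and GAAA, matched for Isg15, Ifit1, Ifit3 and B2m. It matched in 3.44% of all 32851 promoter windows of that length, and in any window of 3.99% of their 27025 genes. The gamma-activated sequence, a motif of the interferon gamma response, searched as TTC, any 3 bases and GAA, matched for Irf1. It matched in 8.30% of all windows and for 9.55% of genes. Its letters are the same on both strands. The windows of H2-K1, H2-D1, Tap1 and Irf7 held neither set of letters. Only exact letters were searched, so a window without a match may still hold a looser form of either motif. Bases 170 to 51 before the start are given 5′ to 3′ on the gene's own strand, with the matches in capitals; in Isg15 the capitals cover 3 overlapping matches, in Ifit1 and Ifit3 2 each on the opposite strand. The stretches are chr4:156200869-156200988 (minus strand) for Isg15, chr19:34640719-34640838 (plus) for Ifit1, chr19:34583359-34583478 (plus) for Ifit3, chr2:122147517-122147636 (plus) for B2m and chr11:53769844-53769963 (plus) for Irf1.
Isg15: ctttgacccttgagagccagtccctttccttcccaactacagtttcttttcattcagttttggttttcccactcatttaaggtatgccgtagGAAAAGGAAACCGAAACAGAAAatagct
Ifit1: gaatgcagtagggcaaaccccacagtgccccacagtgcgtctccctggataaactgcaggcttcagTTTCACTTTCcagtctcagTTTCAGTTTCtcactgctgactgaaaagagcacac
Ifit3: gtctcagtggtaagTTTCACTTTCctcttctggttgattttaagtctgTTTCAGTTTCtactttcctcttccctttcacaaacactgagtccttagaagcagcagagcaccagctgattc
B2m: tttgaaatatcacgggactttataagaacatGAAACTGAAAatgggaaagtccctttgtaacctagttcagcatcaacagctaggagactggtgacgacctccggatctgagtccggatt
Irf1: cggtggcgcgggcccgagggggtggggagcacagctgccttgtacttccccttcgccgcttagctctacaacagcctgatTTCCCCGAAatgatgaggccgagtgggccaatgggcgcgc

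The genes lie on 6 chromosomes of GRCm38 in GENCODE M21. H2-K1 (33996017 to 34000347, minus strand), Tap1 (34187553 to 34197225, plus) and H2-D1 (35262730 to 35267499, plus) lie in the MHC on chromosome 17. Ifit3 (34583531 to 34588731, plus) and Ifit1 (34640871 to 34650009, plus) lie in the Ifit cluster on chromosome 19. B2m is on chromosome 2 (122147686 to 122153083, plus), Irf1 on chromosome 11 (53770014 to 53778374, plus), Irf7 on chromosome 7 (141262706 to 141266481, minus) and Isg15 on chromosome 4 (156199424 to 156200818, minus). An annotated gene on the opposite strand overlaps B2m (Patl2), Tap1 (Psmb9), Irf1 (Gm17334) and Irf7 (Phrf1), and whether reads were counted by strand is not stated in these sources.

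The members also differ in how surely reads can be assigned to them. Of all 50-base windows of the longest coding transcript, 51.2% of those of Ifit3 occur unchanged in its neighbour Ifit3b. The share found in any other gene was 14.3% for H2-D1, whose nearest match was H2-Q1, and 8.79% for H2-K1, whose nearest match was H2-D1. It was 7.13% for Ifit1, 6.47% for Tap1, 3.96% for Isg15, 2.49% for Irf1 and 0% for B2m and Irf7. The deposited counts of B2m and Irf7 were whole numbers in all 6 libraries, while those of H2-K1, H2-D1, Tap1, Ifit3 and Isg15 were fractional in all 6, so part of their reads was divided between genes by estimation.

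Per length, B2m, H2-D1 and H2-K1 stood far above the other 6 members. Averaged over the 6 libraries, B2m stood at 64.1 FPKM, H2-D1 at 30.5, H2-K1 at 25.8, Irf1 at 4.07, Irf7 at 1.93, Ifit3 at 1.60, Tap1 at 1.43, Isg15 at 1.40 and Ifit1 at 0.362 FPKM. B2m was above 93.98% of the genes tested and Ifit1 above 7.16%. B2m exceeded H2-D1, and H2-D1 exceeded H2-K1, in each of the 6 libraries. From Irf7 down to Isg15 the ranges over libraries overlapped, so the order of those 4 neighbours is not fixed by these data.

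B2m had the lowest p of the 9 members, with a mean fold of 1.37 in knockout over wild type, and it did not pass the test over all genes. B2m, the light chain shared by all class I molecules, was at 96.65, 76.45 and 54.82 FPKM in knockout libraries 1, 2 and 3, against 57.26, 51.76 and 47.55 FPKM in wild-type libraries 1, 2 and 3. Knockout libraries 1 and 2 were above every wild-type library, and knockout library 3 fell inside the wild-type range. In CPM, counts scaled to library size after TMM, the knockout libraries had 68.1, 66.8 and 48.6. The wild-type libraries had 45.9, 45.1 and 42.6, and the groups did not overlap on this scale. Ifit3 was the only other member with separate groups in CPM, and how often this occurred among all genes was not counted. In FPKM, where B2m overlapped, 5.86% of all genes tested had every knockout value above every wild-type value. Mean levels were 76.0 ± 20.9 FPKM for knockout and 52.2 ± 4.87 FPKM for wild type (SD, n = 3 each), with a log2 fold change of 0.46 (SE 0.14, 95% interval 0.13 to 0.78). The unadjusted p of 0.0122 ranked 69 of 12774, and the adjusted p was 0.994 by edgeR's quasi-likelihood test. An exact two-sided permutation test on log2 CPM gave p = 0.1, and 3 against 3 libraries can give no smaller one.

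H2-K1 and H2-D1, the classical heavy chains that bind the peptide, showed no separation by genotype. H2-K1 had 27.77, 32.05 and 22.27 FPKM in the knockout libraries, against 24.02, 28.64 and 20.26 FPKM in wild type. Library 2 was the highest of its group in both genotypes and library 3 the lowest. H2-D1 had 39.80, 34.66 and 24.38 FPKM in the knockout libraries, against 28.31, 30.23 and 25.37 FPKM in wild type, so that knockout library 3 was the lowest of all 6. Their log2 fold changes were 0.11 (SE 0.18, 95% interval -0.32 to 0.53) and 0.16 (SE 0.14, 95% interval -0.17 to 0.49). Leaving out single libraries moved H2-K1 between -0.084 (no knockout library 2) and 0.26 (no wild-type library 2), and H2-D1 between 0.055 (no knockout library 2) and 0.29 (no knockout library 3). With both heavy chains summed as 1 gene, which removes the split of reads between them, it was 0.13 (SE 0.16, 95% interval -0.23 to 0.50).

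Tap1, a subunit of the transporter that brings peptides to class I molecules, had 1.96, 1.52 and 1.14 FPKM in the knockout libraries, against 1.31, 1.62 and 1.0 FPKM in wild type. The groups overlapped. Its log2 fold change was 0.16 (SE 0.24, 95% interval -0.39 to 0.70), from 51.98 to 93.94 expected counts per library; it was 0.0095 when wild-type library 3 was left out and 0.37 when wild-type library 2 was.

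**Figure D1:**
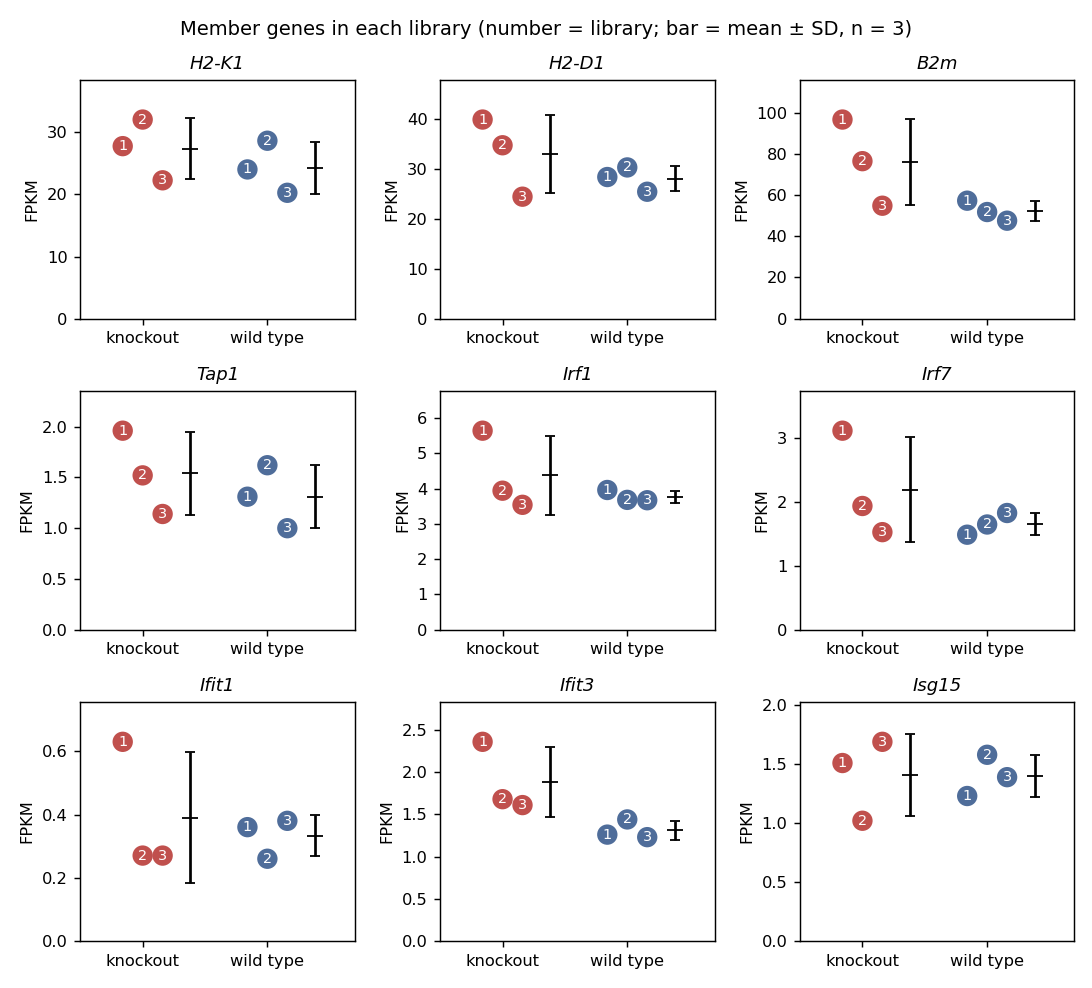
FPKM of the 9 members in knockout (left, red) and wild-type (right, blue) libraries; each numbered point is 1 library and the bars are the mean ± SD (n = 3). Knockout library 1 is the highest of the 6 for 7 members, and the groups are separate in FPKM for Ifit3 alone.

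Heavy chains and light chain were also set against each other within each library, which needs no scaling between libraries. The ratio is made from the same B2m and heavy chain values as above, so it is not an independent result. Summed H2-K1 and H2-D1 FPKM per B2m FPKM came to 0.699, 0.873 and 0.851 in the knockout libraries, against 0.914, 1.14 and 0.960 in the wild-type libraries. Every knockout library lay below every wild-type library, by a narrow gap between 0.873 in knockout library 2 and 0.914 in wild-type library 1. On the log2 scale the ratio averaged -0.32 ± 0.18 for knockout and -0.0012 ± 0.17 for wild type (SD, n = 3 each), a difference of -0.31. The two-sided exact permutation test gave p = 0.1, the smallest that this design allows. Leaving out knockout library 1 gave -0.21, leaving out wild-type library 2 gave -0.22, and the difference lay between -0.38 and -0.34 without any single one of the other 4. H2-D1 alone gave 0.412, 0.453 and 0.445 per B2m in the knockout libraries, against 0.494, 0.584 and 0.534 in wild type. H2-K1 alone gave 0.287, 0.419 and 0.406 per B2m in the knockout libraries, against 0.419, 0.553 and 0.426 in wild type, so knockout library 2 and wild-type library 1 were level. The heavy chain genes share reads with their relatives and B2m with none, and the part of read assignment in this ratio was not tested.

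**Figure D2:**
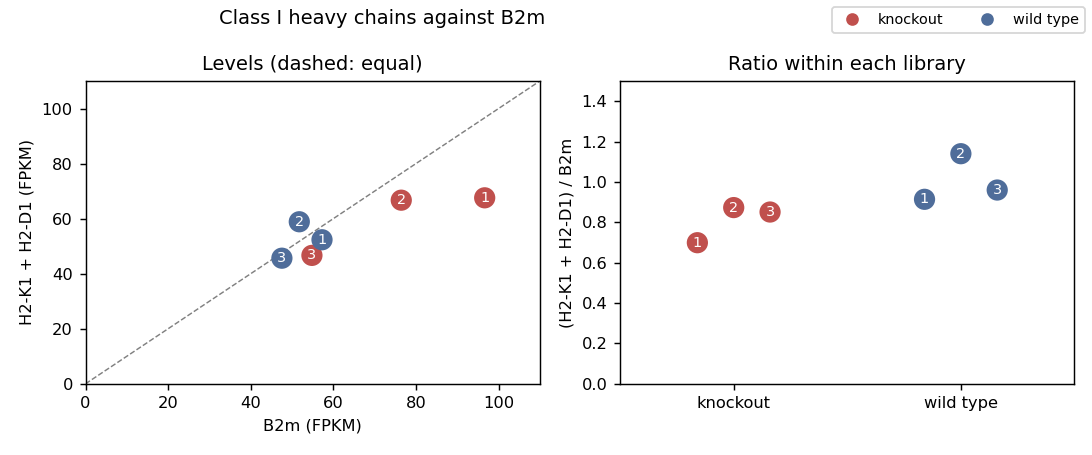
Left, summed H2-K1 and H2-D1 FPKM (vertical axis) against B2m FPKM (horizontal axis), with a dashed line where they are equal; right, their ratio in each library by genotype. Points are single libraries with their number, knockout red and wild type blue; the knockout ratios run from 0.699 to 0.873 and the wild-type ratios from 0.914 to 1.14.

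Ifit3, which encodes an interferon-induced antiviral tetratricopeptide protein, was the only member with separate groups in FPKM. It had 2.36, 1.68 and 1.61 FPKM in the knockout libraries, against 1.26, 1.44 and 1.23 FPKM in wild type; every knockout FPKM exceeded every wild-type FPKM, as for 5.86% of all genes tested. Its log2 fold change of 0.45 (SE 0.19) had a 95% interval of 0.011 to 0.90, with an unadjusted p of 0.0459 and an adjusted p of 0.994 by edgeR's quasi-likelihood test. The separation was not seen when the near-identical copy was added: Ifit3 and Ifit3b together were at 3.08, 2.25 and 3.03 FPKM in the knockout libraries, against 1.91, 2.81 and 1.97 FPKM in wild type. Wild-type library 2 then lay above knockout library 2. For the summed pair, a fit chosen after seeing the data, it was 0.23 (SE 0.24, 95% interval -0.32 to 0.78).

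Ifit1, the neighbouring member of the same antiviral family, binds RNA whose cap lacks host modifications and was the lowest of the 9. It had 0.63, 0.27 and 0.27 FPKM in the knockout libraries, against 0.36, 0.26 and 0.38 FPKM in wild type. Knockout library 1 was high and the other 2 knockout libraries lay within the wild-type range. With only 13.0 to 26.88 expected counts per library, the log2 fold change of 0.12 (SE 0.36) had a 95% interval from -0.71 to 0.95, and it was -0.24 when knockout library 1 was left out and -0.015 when wild-type library 2 was.

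Isg15, a ubiquitin-like protein that is joined to other proteins in the interferon response, was the only member with a mean log2 fold change below 0. It had 1.51, 1.02 and 1.69 FPKM in the knockout libraries, against 1.23, 1.58 and 1.39 FPKM in wild type. Knockout libraries held both the highest and the lowest value, and the groups overlapped. Its log2 fold change of -0.080 (SE 0.32) had a 95% interval from -0.82 to 0.66, on 13.47 to 22.09 expected counts per library; it was 0.082 when knockout library 2 was left out and 0.044 when wild-type library 2 was.

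Irf7 and Irf1 are transcription factors of the pathway, Irf7 the main amplifier of type I interferon production and Irf1 an activator of class I genes downstream of interferon gamma. Irf7 had 3.12, 1.94 and 1.53 FPKM in the knockout libraries, against 1.49, 1.65 and 1.83 FPKM in the wild-type libraries (log2 fold change 0.30, SE 0.23). Knockout libraries 1 and 2 were above all wild-type libraries and knockout library 3 was inside their range. Irf1 had 5.64, 3.94 and 3.54 FPKM in the knockout libraries, against 3.96, 3.68 and 3.67 FPKM in the wild-type libraries (log2 fold change 0.13, SE 0.13). Its wild-type libraries were close together, at 3.77 ± 0.165 FPKM (SD, n = 3), and knockout libraries 2 and 3 lay next to them. Without knockout library 1 the values were 0.10 for Irf7 and 0.035 for Irf1, and without knockout library 3 they were 0.45 and 0.21; Irf7 was at 0.20 without wild-type library 1.

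**Figure D3:**
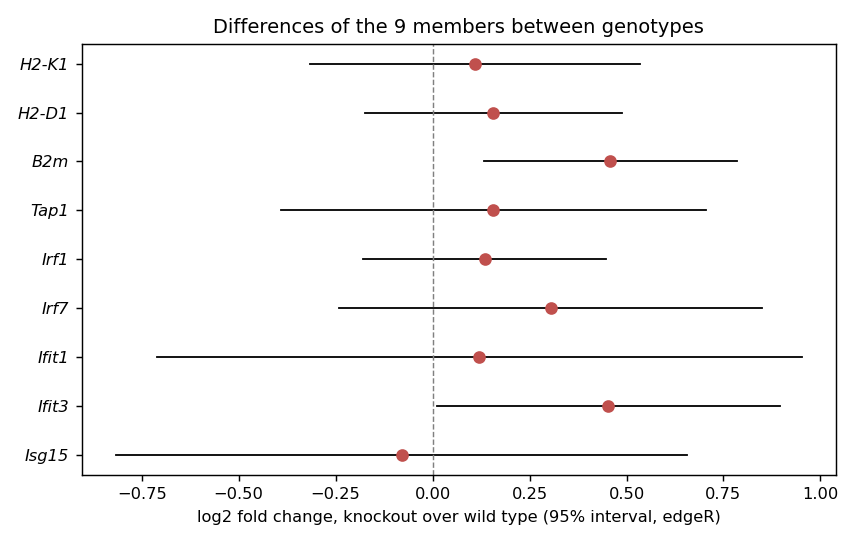
Log2 fold change of each member, knockout over wild type, with its 95% interval from edgeR's fit (horizontal axis); the dashed line marks no difference. The intervals of B2m and Ifit3 lie above 0 before adjustment over all genes, and those of the other 7 members include 0.

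Read together, 0 of the 9 members passed the threshold of 0.05 over all genes by edgeR, by DESeq2 or by limma. An unadjusted p under 0.05 was reached by 2 of 9 members, B2m and Ifit3, and by 3.55% of all genes tested. The log2 fold change was above 0 for 8 of 9 members, against 51.1% of all genes, and the median was 0.16, against 0.0046 over all genes. Without knockout library 1, 7 of 9 were above 0 and the median was 0.10; the median was 0.285 when knockout library 3 was left out and 0.261 when wild-type library 2 was. Ifit1 and Isg15 also changed sign when the slow-fibre level was a covariate, to -0.023 and 0.035. The 10 slow-fibre genes behind that covariate summed to 2892, 1926 and 124.8 FPKM in knockout, against 877.6, 93.16 and 712.8 FPKM in wild type; all 10 had a log2 fold change above 0 (median 1.5) and 0 passed the threshold.

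Libraries of the same genotype also differed from each other. Knockout library 1 had the highest FPKM of the 6 libraries for 7 members, but it was so for 62.2% of all genes tested, and on the TMM-scaled log2 CPM scale for 5 members and 29.9% of genes. Wild-type library 3 had the lowest FPKM for 4 members and for 22.4% of genes. As mean log2 CPM deviations from each gene's own mean over the 6 libraries, the 5 interferon response members stood at 0.31, -0.066 and 0.0011 in the knockout libraries, against -0.20, -0.058 and 0.010 in wild type. The 4 class I members stood at 0.17, 0.31 and -0.16 in the knockout, against -0.15, 0.095 and -0.26 in wild type. Knockout library 1 was thus highest for the interferon response members, and knockout library 2 for the class I members. On the same scale Isg15 and Ifit3 went apart in knockout library 2, at -0.37 and 0.15.

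**Figure D4:**
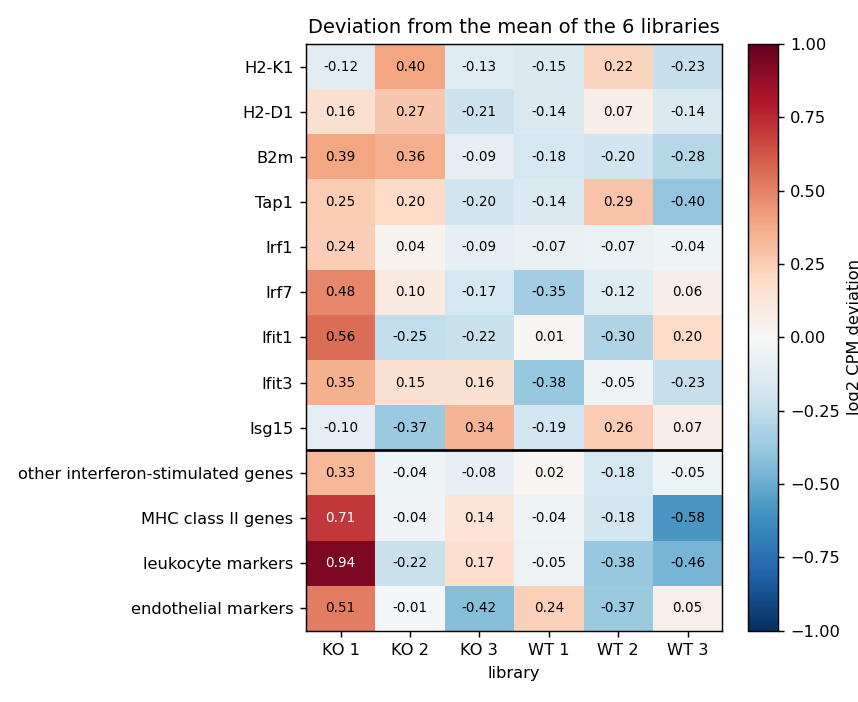
Log2 CPM deviation of each member (rows above the line) from its own mean over the 6 libraries (columns, knockout first), and the mean deviation over the tested genes of 4 related lists below the line; red is above the mean and blue below. Knockout library 1 is at 0.94 for leukocyte markers and at 0.71 for MHC class II genes.

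Marker transcripts of other cells also differed between these libraries. The 15 markers of leukocytes and macrophages summed to 101.6, 33.6 and 47.6 FPKM in the knockout libraries, against 43.0, 29.9 and 29.2 FPKM in wild type, and none was at 0 in any library; Ptprc, the pan-leukocyte antigen, had 0.59, 0.18 and 0.24 FPKM in knockout, against 0.24, 0.15 and 0.10 FPKM in wild type. All 14 tested had a log2 fold change above 0 (median 0.67, or 0.27 with 13 of 14 above 0 without knockout library 1), and 0 passed the threshold. Knockout library 1 was the highest of all 6 for B2m (96.65 FPKM) and for the leukocyte sum. Knockout library 2 had B2m at 76.45 FPKM, above every wild-type library, with the leukocyte sum inside the wild-type range. Knockout library 3 had B2m at 54.82 FPKM, inside the wild-type range, with the leukocyte sum above every wild-type library. The 9 endothelial markers summed to 88.8 to 218.1 FPKM among knockout libraries and 96.6 to 158.2 FPKM among wild-type libraries, the 9 fibroblast and tendon markers to 241.7 to 463.3 FPKM in knockout and 181.6 to 470.7 FPKM in wild type, and the 12 lymphoid markers to no more than 0.88 FPKM in any library, with Cd3g at 0 in all 6. In bulk muscle RNA, fewer cells of a type and less RNA per cell cannot be told apart, and the part of these cells in the members' levels was not tested.

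The rest of the pathway was read from lists of its parts, and 0 members of any of them passed the threshold. Among 16 interferon receptor and signalling genes 13 had a log2 fold change above 0 (median 0.13), with the lowest p for Socs3, a feedback inhibitor of cytokine receptors, at 1.24 (SE 0.35). Among 39 other interferon-stimulated genes 31 were above 0 (median 0.11), with the lowest p for Oas1a, an enzyme activated by viral RNA, at 1.04 (SE 0.35), and Ifi27l2a at 1.25 (SE 0.54), or 0.61 for Ifi27l2a without knockout library 1. Oas1a rested on only 5.51 to 20.91 expected counts per library. Without knockout library 1, 7 of the 16 signalling genes and 21 of the 39 stimulated genes were above 0, with medians of -0.026 and 0.0050. The list of other interferon regulatory factor genes had 5 of 8 above 0 (median 0.039), or 2 of 8 without that library. This list also counts Irf2bp1 (-0.11) and Irf2bp2 (0.32), which encode binding partners of Irf2 and not regulatory factors of that family. The nucleic acid sensors and adaptors had 8 of 12 above 0 (median 0.083), or 4 of 12 without that library. Among 14 interferon-inducible GTPases 12 were above 0 with and without that library (median 0.17, or 0.086 without it), with the lowest p for Gvin1 at 0.82 (SE 0.32) and Tgtp2 at 0.75 (SE 0.30). Gvin1 was at 0.44 without knockout library 1, and Tgtp2 at 0.43 without knockout library 2. Tgtp1, also among these GTPases, was at 0.088 (SE 0.54), with its lowest level, 0.22 FPKM, in knockout library 3. The expected counts of Tgtp1 and Tgtp2 were fractional, and a fit of the summed pair was not tested.

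Of the other 13 genes that process and load class I peptides 8 were above 0 and 5 below (median 0.023). The list of other class I heavy chain genes had 7 of 11 above 0 (median 0.068). That list also counts the class I-like genes Cd1d1, Mr1, Hfe and Fcgrt. Without knockout library 1 the processing genes had 5 above and 8 below 0 (median -0.082). The heavy chain list then had 6 of 11 above 0 (median 0.030). Canx, a chaperone of newly made heavy chains, was at 0.30 (SE 0.15) and Psmb8, an interferon-inducible proteasome subunit, at -0.30 (SE 0.21); Canx was at 0.16 without knockout library 1 and Psmb8 at -0.19 without wild-type library 2. The inducible proteasome subunits Psmb8, Psmb9 and Psmb10 relative to the constitutive Psmb5, Psmb6 and Psmb7 averaged -5.35 ± 0.353 on the log2 scale for knockout and -5.22 ± 0.243 for wild type (SD, n = 3 each; difference -0.13, two-sided exact permutation p = 0.6). The inducible forms were thus a small part of the proteasome transcripts in both genotypes. Symbols of interferon genes were looked up after the lists were drawn up, and only 3 were found in the tables used here. Ifng and Ifna13 were at 0 in all 6 libraries and Ifnz had 0.5 expected counts in 1 wild-type library. Neither Ifnb1 nor another Ifna gene was found by symbol, so their transcripts could not be read.

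**Figure D5:**
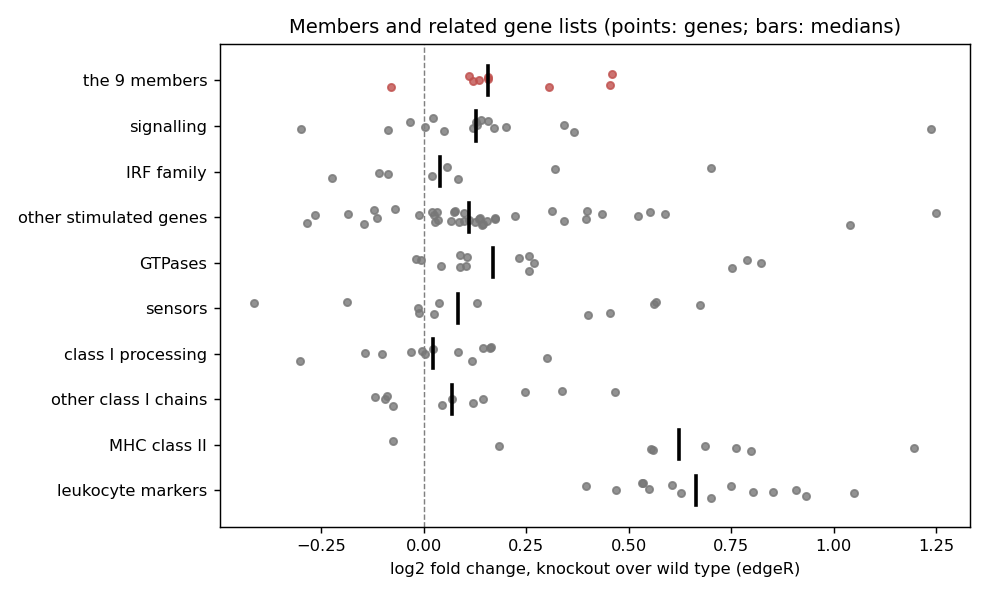
Log2 fold change, knockout over wild type, of each tested gene (points) in the 9 members (red, top) and 9 related lists (grey), with the median of each list as a bar. The members' median of 0.16 lies among those of the interferon lists, while MHC class II genes and leukocyte markers have medians of 0.62 and 0.67.

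Genes outside all lists were ranked by how closely their library profile followed that of the members, as the root mean square difference in log2 CPM deviation over the 6 libraries, among 10176 genes of at least 1 FPKM. Nearest to the class I members were Nagk, a sugar kinase gene (0.054), Vwf, the endothelial von Willebrand factor gene (0.057), and Ncoa6, a nuclear receptor coactivator gene (0.057), where the median gene was at 0.26. Nearest to the interferon response members were Hnrnpr (0.026), Rdh10 (0.037) and Ptdss1 (0.040), where the median gene was at 0.23. Hnrnpr, an RNA-binding protein gene, had 10.9, 6.86 and 6.83 FPKM in the knockout libraries, against 6.83, 6.83 and 6.72 FPKM in wild type. In FPKM it was thus high in knockout library 1 alone. On the log2 CPM scale of the ranking, the interferon response profile was 0.31 in knockout library 1 and -0.20 in wild-type library 1.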

How the data were processed

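Per the file headers, each of the 6 tables gives an expected count and an expression value for 19458 genes. The deposited expected counts are not normalized, and the deposited expression values are FPKM. HISAT2 2.0.4, Bowtie2 2.2.5 and RSEM 1.2.12 with the GRCm38 build are named per the submitters' processing notes; the sources used here do not give their roles or read filters. Expected counts were rounded (by at most 0.5), filtered with filterByExpr (minimum count 10, 12774 genes kept), TMM-scaled and compared by a two-sided quasi-likelihood test (edgeR 4.0.16 in R 4.3.3), with p-values adjusted by Benjamini-Hochberg over every gene tested. DESeq2 1.42.0 and limma 3.58.1 were alternatives, beside a replicate block, left-out libraries, filters, scaling, a slow-fibre covariate and, chosen after seeing the data, a summed Ifit3 pair. Log2 CPM used a prior count of 2. No 2 libraries agreed within counting noise (chi-square per degree of freedom at least 13.6). Precision of low genes is limited by their counts. Members and lists were chosen with earlier results of these data known. Named genes are all members, the tested genes of lowest p in each related list (up to 4), 3 of nearest profile and set markers. Some genes that this rule names are not reported here.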

Additional observations from a re-analysis of the deposited data

How the results depend on the processing

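No alternative called a member: 0 passed in each of the 14 other fits, of 8 tested with a mean of at least 1 FPKM and of 9 otherwise, and adjusted p ranged from 0.567 to 1. The count of called genes was 1 in the main comparison, 6 by the DESeq2 Wald test, and 0 to 1 with each library left out in turn (0 without knockout library 2 or wild-type library 3, where Tmem182 had adjusted p of 0.0729 and 0.0549). Of 126 member values under alternatives 118 kept their direction and 8 turned over. With a slow-fibre covariate Ifit1 was at -0.023 and Isg15 at 0.035. With limma-voom quality weights, which set knockout library 1 at 0.297, Ifit1 was at -0.25, Irf5 at -0.53, Irf8 at 0.10 and Pdia3 at -0.051. With a library left out, log2 fold changes ran from -0.084 to 0.26 for H2-K1, -0.24 to 0.27 for Ifit1, -0.31 to 0.082 for Isg15, 0.37 to 0.60 for B2m and 0.37 to 0.55 for Ifit3. Among related genes they ran from -0.47 to 1.19 for Irf5, -0.18 to 0.024 for Irf2bp1, -0.082 to 0.28 for Pdia3, -0.27 to 0.79 for Cd1d1 and -0.025 to 0.32 for Mr1. The immunoproteasome ratio ran from -0.29 to 0.058, and the heavy chain ratio from -0.38 to -0.21. The cause of these changes was not tested. Same-numbered libraries had correlations of deviations of 0.52, 0.18 and -0.12, which cannot settle whether the replicate numbers pair the samples. With a replicate block 1 gene and 0 members were called. In that fit 5.82% of genes and 1 of 9 members had an unadjusted p under 0.05 by edgeR. The main fit had 3.55% and 2 of 9. With the block the SE was 0.088 for H2-K1, against 0.18, and 0.11 for B2m, against 0.14. For Ifit1 and Isg15, at 13.0 to 26.88 expected counts, depth limits what could be seen.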

Other observations

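MHC class II genes, which antigen-presenting cells use to show peptides taken up from outside the cell, were read beside the members. Of 8 tested, 7 had a log2 fold change above 0 (median 0.62, or 0.47 without knockout library 1) and 0 passed edgeR's threshold over all genes. H2-Eb1 had 7.07, 4.02 and 4.98 FPKM in the knockout libraries, against 2.91, 3.67 and 2.10 FPKM in the wild-type libraries (log2 fold change 0.80, SE 0.23). H2-Aa had 14.22, 7.15 and 9.89 FPKM in knockout, against 7.13, 6.17 and 4.10 FPKM in the wild-type libraries (log2 fold change 0.76, SE 0.23). H2-Ab1 had 14.04, 7.75 and 10.12 FPKM in knockout, against 7.67, 6.92 and 4.18 FPKM in the wild-type libraries (log2 fold change 0.69, SE 0.23). For these 3 chains each knockout value exceeded each wild-type value, as for 5.86% of all genes tested. The groups overlapped for the other 5 tested, Cd74, H2-DMa, H2-DMb1, Ciita and Ctss. Cd74, the invariant chain, had 46.72, 25.34 and 34.67 FPKM in knockout, against 26.31, 26.6 and 16.83 FPKM in the wild-type libraries (log2 fold change 0.55, SE 0.20), and the log2 fold changes were 1.2 for Ctss, 0.56 for H2-DMb1, 0.18 for H2-DMa and -0.074 for Ciita. The leukocyte markers were highest in knockout library 1 as well, and their part in these levels was not tested.

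Socs3 had 5.29, 4.12 and 1.79 FPKM in the knockout libraries, against 1.30, 1.23 and 1.87 FPKM in wild type, so knockout library 3 fell inside the wild-type range. Traf3, an adaptor of the sensors upstream of interferon, was named for the lowest p of its list. It had 7.15, 4.71 and 4.62 FPKM in the knockout libraries, against 3.39, 3.60 and 3.54 FPKM in wild type. Each knockout value exceeded each wild-type value, as for 5.86% of all genes tested. Its log2 fold change was 0.57 (SE 0.12), and edgeR gave an adjusted p of 0.994.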
